A study of Citrus maxima and Citrus sinensis with 8 samples.

Results

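Leaf transcripts that hardly differed between 2 citrus species, with or without long exposure to aluminium, are described here as candidate reference transcripts. The genes were chosen by their FPKM: a gene was taken when its mean over the 8 libraries was at least 10 and below 500 FPKM and its highest FPKM was at most 1.2 times its lowest. FPKM counts the fragments on a gene per kilobase of its length, scaled to the depth of the library. The rule found 82 genes among the 9002 gene IDs in that range of levels (0.911%), out of 30297 IDs in all. Because the rule used the levels in all 8 libraries, the small spread and the small differences between groups given below are a description of the genes selected on them and carry no test.

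A reference transcript is one whose level is taken as fixed, so that the level of other transcripts can be expressed relative to it, as in quantitative PCR. Transcripts of the cytoskeleton, of protein synthesis and turnover and of central metabolism are the usual choices in plants, such as those of actin, tubulin, ubiquitin, elongation factors and glyceraldehyde-3-phosphate dehydrogenase. Their levels can shift with tissue, species and stress, which is why candidates are checked in the conditions of the experiment. The files list IDs without gene names or descriptions, so none of the 82 genes is named here and no function is given for any of them.

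The libraries came from leaves of seedlings of Citrus grandis (pummelo, given as Citrus maxima in the organism label) and Citrus sinensis (sweet orange). In each species, seedlings that had received aluminium for 18 weeks were set against control seedlings. The 4 groups, C. grandis aluminium, C. grandis control, C. sinensis aluminium and C. sinensis control, had 2 biological replicates each, and each replicate was a pool of leaves from 5 seedlings. The sources used here do not give the aluminium dose, the age of the seedlings or the cultivars. In whole leaves, a transcript in fewer cells and less of it per cell cannot be told apart.

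The library totals behind the deposited FPKM, as recovered from the values, were 16443205 to 19794247 reads. Nearly all of these reads lay on genes, so the totals need not be all reads sequenced. Replicates differed unequally between groups. Over the 10787 genes with at least 100 reads in every library, the mean chi-square of the reads between replicates was 1.92 in C. grandis aluminium, 82.06 in C. grandis control, 111.24 in C. sinensis aluminium and 12.64 in C. sinensis control, where sampling noise alone gives about 1. The share of these genes with a chi-square p below 0.05 was 11.6%, 66.2%, 58.6% and 38.6% in the same order of groups. By this share and by the median chi-square, the C. grandis control replicates differed most, and by the mean the C. sinensis aluminium replicates did. The C. grandis aluminium replicates were therefore far closer to each other than the other pairs, though not within sampling noise. They were kept as 2 samples. With those 2 libraries counted as 1, the rule found 104 genes, which included all 82. Averaging libraries can only lower or keep the ratio of a gene, so the 82 could hardly be lost.

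The constant genes covered a wide range of levels. Their mean over the 8 libraries ran from 10.5 to 398 FPKM with a median of 39.2 FPKM, and all genes in the range searched had a median of 27.0 FPKM. Of the 82 genes, 31 had a mean of 10 to 30 FPKM, 43 of 30 to 100 FPKM and 8 of 100 to 500 FPKM. These were 0.63%, 1.4% and 0.798% of the genes at each level.

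**Figure D1:**
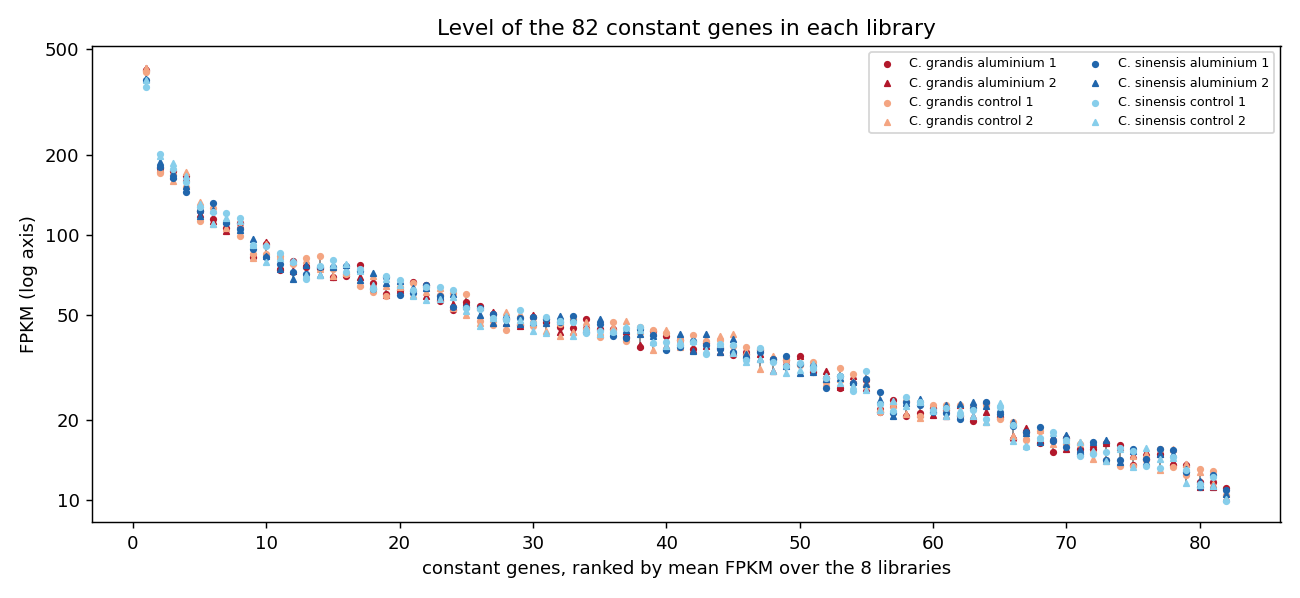
FPKM of the 82 constant genes in each of the 8 libraries, on a log axis, with genes ranked by their mean and a line from the lowest to the highest library. Colours are the 4 groups and symbols the 2 replicates. The points of a gene lie within 1.2-fold of each other, while means run from 398 to 10.5 FPKM.

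Cs6g18705 was the most abundant constant gene. It stood at 416 and 426 FPKM in C. grandis aluminium, 411 and 425 in C. grandis control, 383 and 387 in C. sinensis aluminium and 359 and 381 in C. sinensis control leaves. As deposited, all 4 C. grandis libraries lay above all 4 C. sinensis libraries. Cs1g12505, the next in level, showed the opposite order, with 178 and 176 FPKM in C. grandis aluminium, 171 and 176 in C. grandis control, 179.8 and 188 in C. sinensis aluminium and 202 and 197 in C. sinensis control leaves. The pair at the low end was Cs2g12030, with a mean of 10.5 ± 0.396 FPKM, and Cs6g16410, with a mean of 11.8 ± 0.635 FPKM (SD, n = 8 libraries).

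The tightest gene by the ratio of highest to lowest library was Cs3g17050, with a ratio of 1.092. It stood at 30.3 and 31.5 FPKM in C. grandis aluminium, 33.1 and 31.6 in C. grandis control, 32.1 and 30.3 in C. sinensis aluminium and 31.2 and 32.6 in C. sinensis control leaves. The C. grandis control libraries lay just above both C. grandis aluminium libraries, and the other pairs of groups overlapped. Cs1g24790 had the lowest coefficient of variation of the 82 genes, 2.66% over the 8 libraries, and a ratio of 1.096. Its values were 22.3 and 20.9 FPKM in C. grandis aluminium, 22.9 and 21.8 in C. grandis control, 21.5 and 21.8 in C. sinensis aluminium and 21.9 and 21.7 in C. sinensis control leaves. The C. sinensis libraries lay between 21.5 and 21.9 FPKM, inside the range of the C. grandis libraries. Cs7g11110, at nearly the same level, had a ratio of 1.105 with 21.8 and 20.8 FPKM in C. grandis aluminium, 22.8 and 22.1 in C. grandis control, 21.2 and 22.8 in C. sinensis aluminium and 22.3 and 20.7 in C. sinensis control leaves.

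Among more abundant genes, Cs7g04170 had a ratio of 1.107. It stood at 70.1 and 72.9 FPKM in C. grandis aluminium, 70.9 and 71.4 in C. grandis control, 75.9 and 76.7 in C. sinensis aluminium and 72.6 and 77.6 in C. sinensis control leaves. Both C. sinensis aluminium libraries lay above both C. grandis aluminium libraries, while in control leaves the gap between the nearest libraries of the species was smaller. The other 6 of the 10 tightest genes were Cs2g12030, Cs5g32480, orange1.1t00171, Cs8g15360, orange1.1t01172 and Cs3g18990, with ratios of 1.113 to 1.13 and coefficients of variation of 3.46% to 4.4%. Above 100 FPKM the tightest were Cs7g28810, with a ratio of 1.165 and a mean of 108 ± 5.27 FPKM, and Cs9g03480, with a ratio of 1.169 and a mean of 171 ± 8.37 FPKM (SD, n = 8 libraries).

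**Figure D2:**
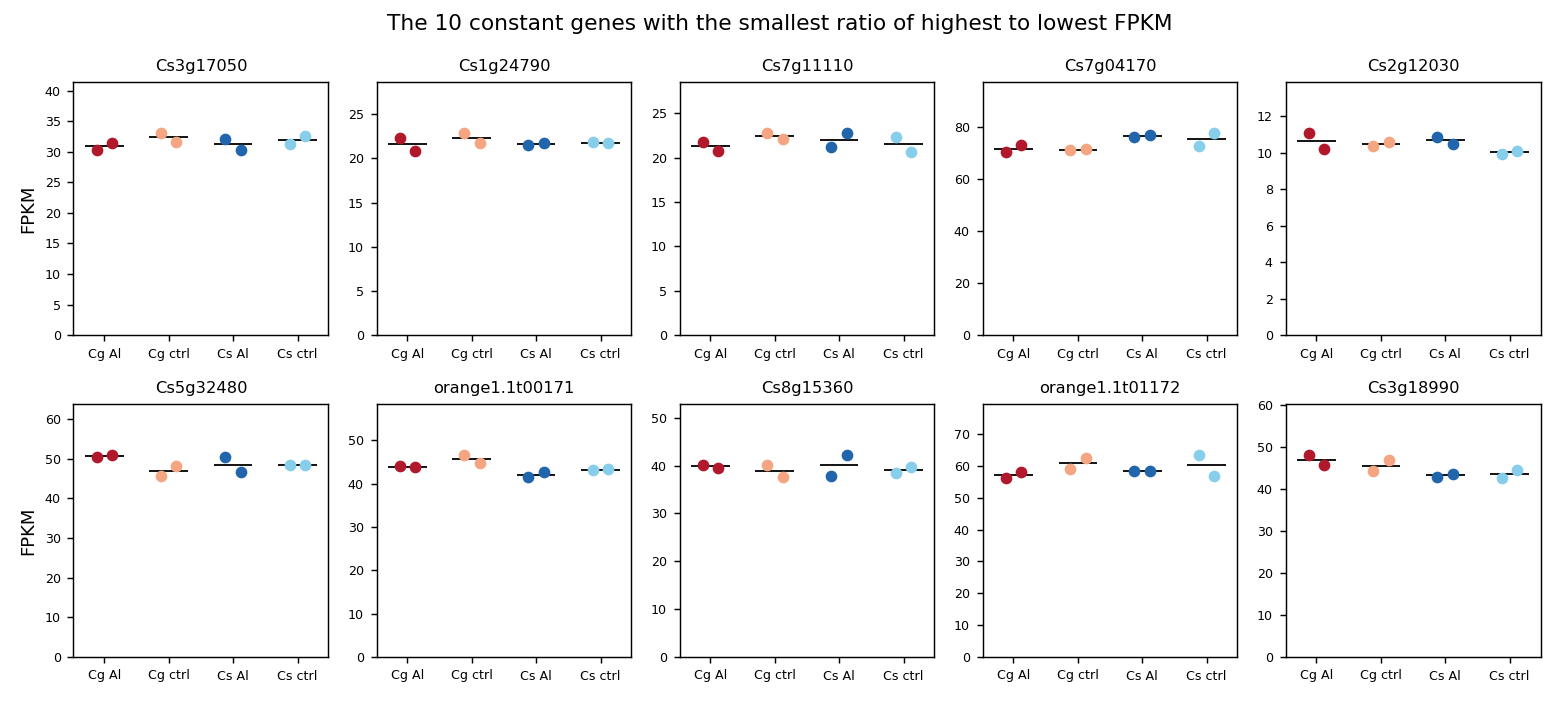
FPKM of the 10 constant genes with the smallest ratio of highest to lowest library, by group (Cg, C. grandis; Cs, C. sinensis; Al, aluminium; ctrl, control). Points are the 2 libraries of a group and bars their mean, on axes that start at 0. Ratios run from 1.092 for Cs3g17050 to 1.13 for Cs3g18990.

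The limit of 1.2 cut through genes that hardly differed from each other. Just inside it lay Cs7g26890, Cs5g09170 and Cs2g07540, with ratios of 1.19966, 1.19961 and 1.19960. Just outside it lay Cs9g15060, Cs9g14070 and Cs2g03300, with ratios of 1.20001, 1.20004 and 1.20008, and these genes are not among the 82. A limit lower by 0.05 kept 22 genes and a limit of 1.3 kept 407. Over all genes in the range of levels the median ratio was 1.94, without the 48 genes that are listed at 0 in a library.

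Part of the remaining spread was of the size of counting error. Whole reads recovered from the FPKM gave each gene the SD of log2 FPKM that counting alone would cause. PCR copies of a molecule are counted as separate reads, so this SD covers counting error alone. The observed SD of log2 FPKM over the 8 libraries had a median of 0.0776 in the constant genes, against a median counting SD of 0.04. The ratio of the observed to the counting SD had a median of 1.96 in the constant genes and 7.2 in all genes of the range.

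The observed SD was below the counting SD in 7 of the 9002 genes of the range. Of these, 6 were constant genes: Cs2g12030, Cs6g18820, Cs1g24790, Cs7g11250, Cs3g18880 and Cs5g31200. The rule selects genes of small spread, which favours this outcome. For these 6 genes, with 241 to 905 reads per library on average, spread between libraries beyond counting error was not detectable at this depth. Other constant genes lay just above equality, such as Cs3g17050 at a ratio of 1.0 and Cs6g16410 at 1.04. The cut therefore does not mark which genes had spread beyond counting error. Cs2g12030, with 320 reads per library on average, had the lowest ratio, an observed SD of 0.0544 against a counting SD of 0.0808. Cs6g18705, with 7338 reads per library on average, had the highest ratio, at 5.27. Its observed SD was 0.0889 and its counting SD 0.0169.

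**Figure D3:**
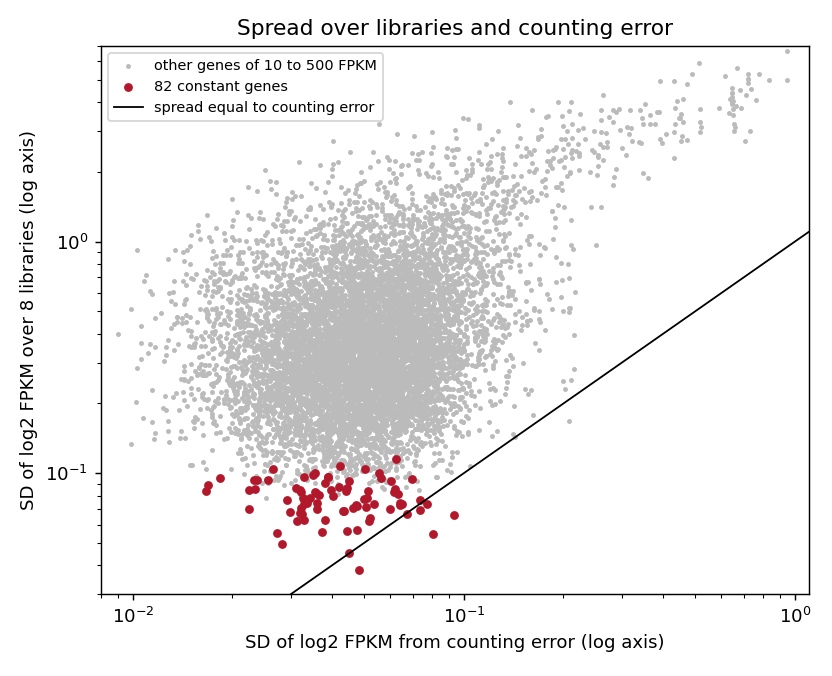
Observed SD of log2 FPKM over the 8 libraries against the SD that counting error alone gives, on log axes, for the 82 constant genes and the other genes of 10 to 500 FPKM; libraries at 0 are left out of a gene's SD. The line marks equal values. Of the 9002 genes 7 lie under it, 6 of them among the 82 constant genes.

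The share of genes that passed the rule differed with the reads behind them. It was 0.37% of the genes with under 500 reads per library on average (8 of 2163), 0.858% of those with 500 to 1000 reads (23 of 2682), 1.4% of those with 1000 to 2000 reads (31 of 2214) and 1.03% of those above (20 of 1943). The reads of a gene follow its level and its length, and the level entered the rule.

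Length did not enter the rule directly. At a given FPKM, however, a shorter gene has fewer reads and so a larger counting error, which adds to its ratio. The constant genes had a median length of 1844 bp, from 339 bp for Cs5g09170 to 4947 bp for orange1.1t02252, and all genes of the range had a median of 1746 bp. The rule passed 0.377% of the genes under 1000 bp (5 of 1327) and 0.965%, 1.07% and 1.01% of those of 1000 to 2000 bp, 2000 to 3000 bp and longer. By ID, 74 of the 82 genes belonged to the 9 numbered series Cs1g to Cs9g and 8 to the orange1.1t series. None came from the 77 other IDs of the range. The series Cs1g gave 14 constant genes of 851 in the range (1.65%), and Cs8g gave 2 of 680 (0.294%). In the numbering, 2 pairs of constant genes lay within 10 places of each other, Cs2g12030 with Cs2g12060, 3 places apart, and Cs5g09100 with Cs5g09170, 7 places apart.

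The differences left between aluminium and control leaves were small and went both ways. On the log2(FPKM + 1) scale, the difference of aluminium minus control in C. grandis had a median of -0.01 over the 82 genes and ran from -0.2 to 0.21. In C. sinensis its median was 0.0 and its range -0.18 to 0.2. The 16327 genes tested, whose means were 1 FPKM or more, had medians of -0.09 in C. grandis and 0.08 in C. sinensis. The median absolute difference of the constant genes was 0.0595 in C. grandis and 0.0667 in C. sinensis, against 0.288 and 0.258 over all genes tested. The SE of a difference, from limma, had a median of 0.0981 over the 82 genes. Each of these differences used the same libraries as the rule.

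Cs7g25650 had the highest aluminium difference in C. grandis. It stood at 16.1 and 15.8 FPKM in C. grandis aluminium and 13.4 and 13.8 in C. grandis control leaves, and at 14.2 and 13.9 FPKM in C. sinensis aluminium and 15.7 and 15.5 in C. sinensis control leaves. The groups did not overlap in either species, and the order of aluminium and control was opposite in the species, with log2 differences of 0.21 and -0.14. The C. sinensis difference was -0.28 to -0.25 under the 3 other scalings tried. The difference of the aluminium effects, C. grandis minus C. sinensis, was 0.35 (SE 0.13). Cs2g07540 came next in C. grandis, with 16.4 and 16.4 FPKM in aluminium and 14.1 and 14.0 in control leaves.

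At the other end in C. grandis lay Cs7g02470, with 37.8 and 38.5 FPKM in aluminium and 44.8 and 43.3 in control leaves, a log2 difference of -0.2. Its C. sinensis libraries stood between 42.4 and 44.7 FPKM, near the C. grandis controls. Cs6g17020 had a log2 difference of -0.17, with 26.4 and 26.7 FPKM in C. grandis aluminium and 31.3 and 28.6 in C. grandis control leaves. Without C. grandis control replicate 1 the difference of Cs6g17020 was -0.11. With voom on recovered reads, which weights the reads in limma and here also rescales the libraries by the trimmed mean of log ratios (TMM), it was -0.1, and that of Cs7g02470 was -0.13.

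In C. sinensis, orange1.1t00105 had the highest difference, 0.2, with 23.5 and 22.6 FPKM in aluminium and 20.2 and 19.7 in control leaves. Cs2g05710 followed at 0.16, with 18.0 and 17.9 FPKM in aluminium and 15.9 and 16.0 in control leaves. The lowest was that of Cs1g08920, -0.18, with 72.1 and 67.8 FPKM in C. sinensis aluminium and 79.1 and 79.8 in C. sinensis control leaves. In each of these 3 genes the aluminium and control libraries of C. sinensis did not overlap. After median centring, in which each library is shifted to the same median log2 level, the differences were 0.06 for orange1.1t00105, 0.02 for Cs2g05710 and -0.32 for Cs1g08920.

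The differences left between the species were of the same size. C. grandis minus C. sinensis had a median of 0.02 in control leaves, with a range of -0.2 to 0.22, and a median of -0.01 in aluminium leaves, with a range of -0.18 to 0.17. The median over all genes tested was 0.17 in control and 0.03 in aluminium leaves. The median absolute difference was 0.0619 in control and 0.0598 in aluminium leaves, against 0.501 and 0.421 over all genes tested.

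Cs3g17160 had the highest species difference in control leaves, 0.22, with 81.3 and 80.1 FPKM in C. grandis control and 68.2 and 70.4 in C. sinensis control leaves. Under aluminium its libraries overlapped between the species, at 75.4 and 78.2 FPKM in C. grandis and 71.1 and 76.9 in C. sinensis. After median centring its difference in control leaves was 0.03. Cs6g18705, whose values are given above, came next with 0.17 as deposited, but its difference was -0.01 after median centring and -0.03 with voom on recovered reads. The lowest difference in control leaves was that of Cs1g12505, -0.2, followed by Cs5g09170 at -0.19, with 63.9 and 65.1 FPKM in C. grandis control and 74.4 and 72.7 in C. sinensis control leaves. Both were further apart after median centring, -0.38 for Cs1g12505 and -0.37 for Cs5g09170, and with voom, -0.41 and -0.4. These scalings lower C. grandis control relative to C. sinensis control in all genes. Both genes were called by those fits at an adjusted p below 0.05, as were 44.6% and 44.8% of all genes tested. After quantile normalization, where 44.3% of all genes were called, Cs5g09170 was called at -0.28. Cs1g12505 was then at -0.21 and not called. Both genes were picked for their low differences in the libraries that the rule used, so nothing is read from these calls. Cs5g09170 is the shortest constant gene, and its 356 to 499 reads per library give a counting SD of 0.0698 on the log2 scale.

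In aluminium leaves Cs4g14680 had the lowest species difference, -0.18, with 59.7 and 59.3 FPKM in C. grandis aluminium and 69.5 and 65.7 in C. sinensis aluminium leaves. Cs7g02470, described above, was also at -0.18, and Cs7g25650 had the highest difference, 0.17. Cs1g17200 stood at 92.0 and 93.6 FPKM in C. grandis aluminium and 82.2 and 83.4 in C. sinensis aluminium leaves, a difference of 0.16, and of 0.1 after quantile normalization. In control leaves the C. grandis and C. sinensis libraries of Cs1g17200 overlapped.

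**Figure D4:**
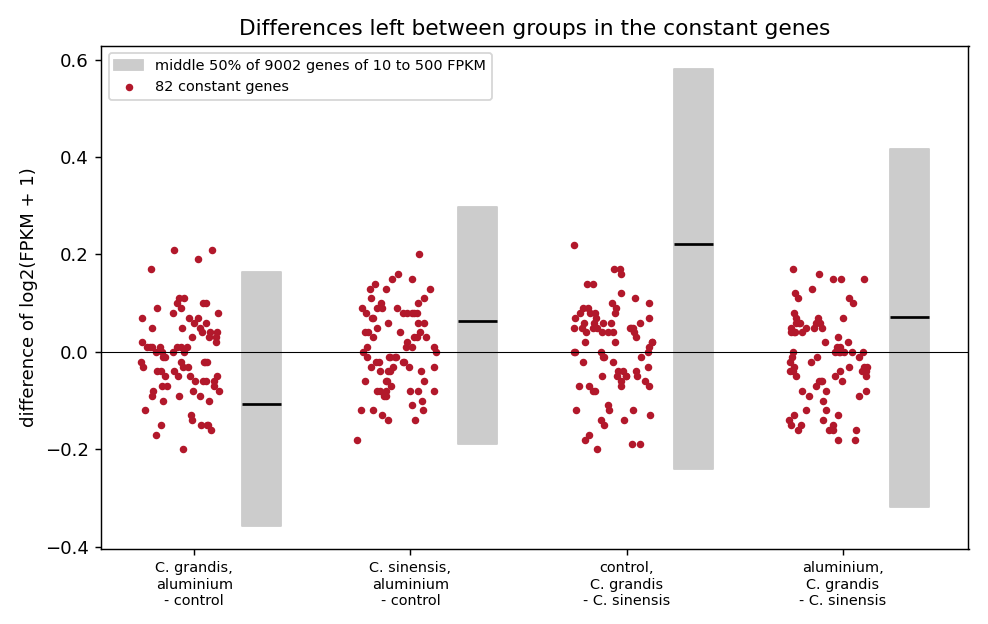
Difference of log2(FPKM + 1) between groups for the 82 constant genes (points, spread sideways at random) in 4 comparisons, beside the middle 50% and the median (line) of the 9002 genes with a mean of 10 to 500 FPKM. The constant genes lie between -0.2 and 0.22 in every comparison.

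No constant gene was called in any comparison by limma at an adjusted p below 0.05, where all genes tested had 16.1% called for aluminium in C. grandis, 6.34% for aluminium in C. sinensis, 48.9% between species in control leaves, 39.3% between species in aluminium leaves and 2.32% for the difference of the aluminium effects. At an unadjusted limma p below 0.05, the count was 0 of 82 for aluminium in C. grandis and in C. sinensis and for the species in control and in aluminium leaves, where 34.4%, 27.4%, 56.6% and 49.6% of all genes fell below it. It was 1 of 82, Cs7g25650, for the difference of the effects, where 20.6% of all genes did. Voom called 14 of the 82 between species in control leaves, where 44.8% of all genes were called. It called 0 of the 82 in the other comparisons, where 13.3%, 5.57%, 38.3% and 1.26% of all genes were called for aluminium in C. grandis, aluminium in C. sinensis, the species in aluminium leaves and the difference of the effects. The rule used these contrasts, so nothing is read from these counts about the genes.

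Libraries of different groups did not overlap in part of the constant genes. With 2 libraries a group, this also happens often without any difference between groups, so no shift is read from it. Aluminium and control libraries did not overlap in 35 of the 82 genes (42.7%) in C. grandis, against 64.8% of all genes tested. In C. sinensis they did not overlap in 38 genes (46.3%), against 60.8%. Between species the libraries did not overlap in 34 genes (41.5%) in control leaves, against 77.1% of all genes tested. In aluminium leaves they did not overlap in 42 genes (51.2%), against 76.8%.

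All 4 C. grandis libraries lay apart from all 4 C. sinensis libraries in 8 constant genes (9.76%), against 41.5% of all genes tested. As deposited, Cs6g18705 and orange1.1t00171 were higher in C. grandis. The mean log2 difference of Cs6g18705 was 0.15 as deposited and 0.2 after quantile normalization. It was 0.06 after median centring and 0.03 with TMM, where the libraries of the species overlapped. That of orange1.1t00171 turned to -0.02 after median centring, -0.04 after quantile normalization and -0.05 with TMM. As deposited and under those 3 scalings, Cs4g14680, orange1.1t00391, Cs1g12505, Cs6g08470, Cs5g09100 and Cs1g23860 were lower. The libraries of 5, 7 and 6 of the 8 genes stayed apart after median centring, quantile normalization and TMM. In control leaves those scalings left 78 to 81 of the 82 constant genes lower in C. grandis. The 8 genes were also picked for separation in the same libraries. Nothing is therefore read from genes that stayed lower or apart. Cs6g08470 averaged 20.9 ± 0.404 FPKM in C. grandis against 23.4 ± 0.529 FPKM in the C. sinensis libraries (SD, n = 4 each, over both treatments). Cs5g09100 averaged 82.9 ± 1.5 FPKM in C. grandis, against 91.8 ± 3.08 FPKM in the C. sinensis libraries. The C. grandis over C. sinensis ratios of the means lay between 0.885 and 1.11 in these 8 genes. Reads of both species were counted on the same IDs, and the part of sequence differences between the species in these shifts was not tested.

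All 4 aluminium libraries lay apart from all 4 controls in 5 constant genes (6.1%), against 9.48% of all genes tested. Cs3g18880, Cs2g05710 and Cs1g25620 were higher in aluminium leaves, and Cs9g05760 and Cs1g21530 were lower. Cs3g18880 is also among the 6 genes whose spread was below counting error. Cs9g05760 stood at 73.3 and 76.3 FPKM in C. grandis aluminium, 82.9 and 82.9 in C. grandis control, 77.5 and 74.0 in C. sinensis aluminium and 85.1 and 81.7 in C. sinensis control leaves. For Cs9g05760 the mean of the aluminium libraries was 0.906 of the mean of the control libraries. The direction held for all 5 genes under the 3 other scalings, while the libraries of 3, 3 and 1 of them stayed apart after median centring, quantile normalization and TMM. The 5 genes were picked for this separation in the same libraries. Nothing is therefore read from their number, their direction or their staying apart.

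Which genes were constant depended on how the libraries were scaled. The median log2(FPKM + 1) of all genes tested ranged over 0.19 between libraries as deposited, from 3.54 and 3.55 in the C. sinensis control libraries to 3.73 in both C. grandis control libraries. The geometric mean of the 82 constant genes ranged only from 37.7 to 38.6 FPKM, a ratio of 1.024, and the rule itself limits that range. When libraries were centred on their median, the rule found 116 genes, of which 23 were among the 82 (28.0% of the 82 and 19.8% of the 116). Quantile normalization, which gives every library the same set of values, gave 117 genes with 37 of the 82 (45.1% and 31.6%), and scaling of the recovered reads by TMM gave 136 with 26 of the 82 (31.7% and 19.1%).

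After rescaling, the constant genes were shifted together in some comparisons. TMM divides all genes of a library by the same factor, and median centring shifts them by nearly the same log2 amount. Genes chosen for flat levels as deposited then move together. The counts and calls under those scalings therefore largely restate the shift of the libraries and are not separate results for each gene. On the log2 FPKM scale, C. grandis minus C. sinensis in control leaves had a median of 0.02 as deposited, with 43 genes higher and 39 lower, and of -0.17 after median centring, with 1 higher and 81 lower. With TMM the median was -0.19, also with 1 higher and 81 lower, and after quantile normalization -0.15, with 4 higher and 78 lower. After median centring limma called 12 of the 82 genes between species in control leaves, all lower in C. grandis, with log2 differences of -0.38 to -0.3, where 44.6% of all genes were called. Aluminium minus control in C. sinensis had a median of 0.0 as deposited, with 41 genes higher and 41 lower, of -0.15 after median centring, with 5 higher and 77 lower, of -0.06 after quantile normalization and of -0.1 with TMM. In C. grandis the medians of aluminium minus control were -0.01 as deposited and 0.03 to 0.07 under the other scalings. Between species in aluminium leaves the medians stayed between -0.06 and -0.01 under all 4 scalings.

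Of the 82 genes, 20 kept a ratio of at most 1.2 under all 4 scalings, and 43 passed it under none of the other 3. The 20 genes were Cs5g20710, Cs3g17160, Cs6g05590, Cs5g24340, Cs4g03750, Cs3g18990, orange1.1t00171, Cs6g19050, Cs1g21530, Cs1g14140, Cs3g01680, Cs2g07270, Cs3g17050, Cs1g10710, Cs1g24790, Cs7g11110, Cs7g16930, Cs2g05710, orange1.1t02252 and Cs2g12030. Their means ran from 75.2 to 10.5 FPKM, so none came from the 8 genes above 100 FPKM. This list was drawn up after the data were seen. Within it Cs1g14140 had ratios of 1.143 as deposited, 1.095 after median centring, 1.077 after quantile normalization and 1.084 with TMM. Cs3g17160 had 1.192 as deposited and 1.064 with TMM, and Cs3g17050, the tightest as deposited, had 1.181 to 1.183 under the other 3 scalings.

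**Figure D5:**
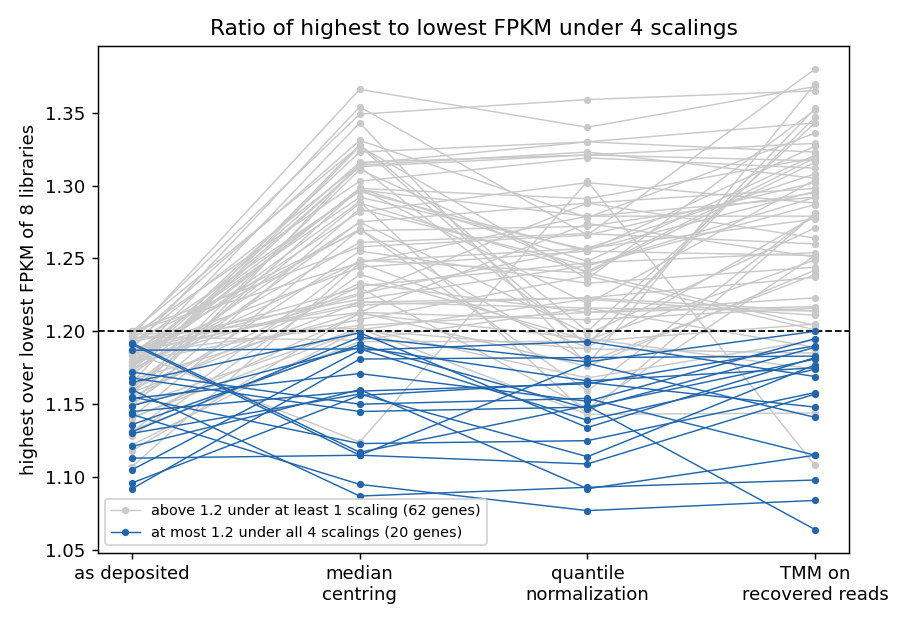
Ratio of the highest to the lowest FPKM of the 8 libraries for each of the 82 constant genes under 4 scalings, with lines joining the values of a gene and a dashed line at 1.2. The 20 genes drawn in blue stay at or under 1.2 throughout, and the other 62 exceed it under at least 1 scaling.

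The libraries differed in how many genes they removed from the list. Without a given library the rule found between 101 and 204 genes, and all 82 were among them each time. Leaving out a library can only lower or keep the ratio of a gene, so the 82 could hardly be lost. With C. grandis control replicate 1 left out, 204 genes were constant over the other 7 libraries, and 40.2% of them stayed constant with it. The level of these 204 genes in that library, which had no part in choosing them, deviated from their mean over the other 7 by a median of 12.9%, and by a median of 20.3% over all genes of the range. It lay above the range of the other 7 libraries in 115 genes and below it in 36. For C. grandis aluminium replicate 2, 101 genes were constant over the other 7 libraries, 82 of which (81.2%) stayed constant with it, and the median deviation was 5.42%. The other C. grandis aluminium library was among those 7.

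Over only 4 libraries, many more genes met the limit than over 8. A ratio of at most 1.2 was found in 1625 genes of the range (18.1%) over the 4 C. grandis libraries and in 1776 (19.7%) over the 4 C. sinensis libraries. Of these, 505 met the limit in each species taken alone. The other 423 of them exceeded the limit over the 8 libraries together, and over the 505 the absolute difference of the mean log2 FPKM had a median of 0.263. On the mean log2 FPKM as deposited, 345 of the 505 (68.3%) were higher in C. grandis. The part of the scaling of the libraries in this was not tested. Over the 4 aluminium libraries, which hold both species, 1545 genes (17.2%) met the limit and over the 4 control libraries 771 (8.56%), with 274 in both treatments each taken alone. The number of libraries is the same in these 4 counts, but the closeness of the replicates is not.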

How the data were processed

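Deposited FPKM came as a table per group (4 tables), with the libraries as columns, per the file headers. Bowtie, TopHat2, HTSeq and edgeR 1.18.0 are named, without roles, per the submitters' processing notes. Genome build and gene models were not given in the sources used here.

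Reads per gene, gene lengths and totals of the libraries were worked out from ratios of FPKM values for all 23370 genes above 0, and served for counting error, scaling by the trimmed mean of log ratios (TMM) and voom. They covered at least 99.93% of each total. Group differences were fitted with limma 3.58.1 (R 4.3.3) to log2(FPKM + 1) of the 16327 genes with a mean of at least 1 FPKM. The fit had a mean per group and 1 spread per gene from all 8 libraries (4 residual degrees of freedom), moderated along the mean level. Two-sided p-values were adjusted by Benjamini-Hochberg over all genes tested. Differences on this scale are too small for low genes. TMM trimmed 30% of log ratios and 5% of levels at each end and was computed in Python 3.11.15. The scripts were tested on simulated data.

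The members, lists and rules were chosen with earlier results of these data known. Genes were named for the smallest ratios overall and per level, the highest and lowest means, the highest and lowest log2 differences per comparison, and nearness to the limit of 1.2. Lists of usual reference genes and leaf markers could not be matched to the IDs, so the leaf label was not checked. Alternatives were other limits, pseudocounts, filters and scalings, a replicate block and leaving out each library. P-values measure the spread between pools of 5 seedlings, shared over all groups. That spread differed between groups, so a p-value does not measure the spread of the compared groups alone.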

Additional observations from a re-analysis of the deposited data

How the results depend on the processing

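The count of 82 constant genes became 22 with the ratio limit lowered by 0.05, 407 with a limit of 1.3, 87 and 65 with the lower end at 5 or 20 FPKM, and 82 with no upper end. It was 116 after median centring, 117 after quantile normalization and 136 with TMM, and 20 genes passed under all 4 scalings. It was 1625, 1776, 1545 and 771 with the C. grandis, C. sinensis, aluminium or control libraries alone, which are fewer libraries, and 101 to 204 without 1 library. The counts under all 4 scalings and for libraries of 1 species or treatment, and the SD with TMM below, were added after seeing the data. The median SD of log2 FPKM of the 82 genes, 0.0776, became 0.102 after median centring, 0.0984 after quantile normalization and 0.109 with TMM, and ranged from 0.0767 to 0.0823 without 1 library.

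Limma called 0 of the 82 genes in all 5 comparisons with a pseudocount of 0.1, without the filter, without 1 library (0 to 0) and with both C. grandis aluminium libraries averaged into 1, which was also added later. Between species in control leaves the calls were 12 after median centring, 5 after quantile normalization and 14 with voom, all lower in C. grandis. Of all genes tested, 44.6%, 44.3% and 44.8% were called there. Under these scalings the calls were 0 in the other comparisons. The libraries of C. sinensis control have the lowest medians as deposited. With the replicate number as a block the calls were 0 in each comparison. The numbers did not pair the libraries: the differences between replicates 1 and 2 correlated between groups by -0.01 to 0.05. Counting error limits the genes with few reads, as given for 6 of them.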

Other observations

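Scaling by 1 factor per library, as with TMM, leaves the FPKM ratio of 2 genes within a library as deposited, while quantile normalization can change it. Over the 3321 pairs of constant genes, the SD of the log2 ratio over the 8 libraries had a median of 0.109 and ran from 0.0196 to 0.197. The closest pair was Cs3g07260 and Cs3g26920, whose FPKM ratio stayed between 2.56 and 2.65 in all 8 libraries. Cs1g10245 and Cs1g23860 came next, with a ratio of 1.46 to 1.53, and then Cs1g14140 and Cs1g10710, with 1.23 to 1.31. Cs1g14140 and Cs1g10710 are both among the 20 genes that passed under all 4 scalings. The widest pair was Cs2g07540 and Cs7g02470, whose ratio ran from 0.315 to 0.434. These pairs were picked from all pairs after the values were seen.

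Averaging over several constant genes narrowed the range as deposited. The geometric mean of the 3 tightest genes had a highest library 1.082 times the lowest, that of the 5 tightest 1.048 and that of the 10 tightest 1.019. For all 82 genes it was 1.024. Under the other scalings the averages ranged more widely: for the 10 tightest the highest library was 1.126 times the lowest after median centring, 1.107 after quantile normalization and 1.149 with TMM. For all 82 genes it was 1.156, 1.127 and 1.168 under those scalings. With TMM the average of the 10 tightest was no narrower than that of the 3 tightest, 1.144. The averages under other scalings were added after seeing the data. All of these values are from the libraries that chose the genes.

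Outside the range searched, 5 of the 2758 genes with a mean of 5 to 10 FPKM had a ratio of at most 1.2, the tightest being Cs2g08370 with a ratio of 1.122 and a mean of 9.13 FPKM. None of the 106 genes with a mean of at least 500 FPKM met the limit. The nearest was Cs2g02990, with a ratio of 1.329.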
